A study of Mus musculus with 8 samples.

Results

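Genes of the sarcomere and its Z-disc were compared between female and male mouse hearts at 8 and 2 months of age. The genes were chosen by symbol: the families of myosin heavy and light chains, troponins, tropomyosins, alpha-actinins, myosin binding proteins, myomesins, myozenins, PDLIM and Xirp proteins, plus the muscle actins and named Z-disc genes such as Des, Ldb3 and Ankrd1. The rule found 35 of the 6106 genes with a single symbol on the array, on 38 probes, and a further probe that matched it but names several genes was not used. All 35 passed the filter on missing values, and each had a value on all 8 arrays.

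The study hybridised whole-heart RNA of C57BL/6 mice, an inbred strain, to Agilent cDNA arrays in 2 dyes. Every pool held RNA from 6 hearts of a single sex and age. The groups were the female and male pools of 8 months and the female and male pools of 2 months. Each array set the female pool against the male pool of the same age. Each age had 4 technical arrays. The female pool was labelled with Cy3 on replicates 1 and 3, and the dyes were swapped on replicates 2 and 4. The spread between animals was therefore not measured at either age. Values below are log2 ratios of the female over the male pool, and each age is summarised by averaging both dye orientations, with the SD of its 4 arrays. The table holds ratios and no levels, so the tissue could not be checked by the levels of its markers, and precision is limited by how many arrays there are. In whole-heart RNA, fewer cells of a type and less RNA per cell cannot be told apart.

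The sarcomere is the contractile unit of striated muscle. Thick filaments of myosin, held at the M-band, pull on thin filaments of actin, and troponin and tropomyosin on the thin filament make that pull depend on calcium. Z-discs anchor the thin filaments, link neighbouring sarcomeres and carry proteins that respond to stretch. Related isoforms of the same proteins serve skeletal muscle, the atria, smooth muscle of vessels and non-muscle cells, all of which a whole heart or its surroundings can hold.

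Many contractile genes are known targets of serum response factor, Srf, which binds the CArG box, a run of A and T bases between CC and GG. The promoter windows of RefSeq (build GRCm38.p6, 250 bases before to 50 after the annotated start) hold a CArG box for 7 of the 29 sarcomere and Z-disc genes that have a window, or 24.1%, against 1.81% of 27025 genes. The box reads as a box on both strands. The stretches of 5 of these genes are shown, 5′ to 3′ on the gene's strand, with the box in capitals and 20 bases on each side.
Acta1: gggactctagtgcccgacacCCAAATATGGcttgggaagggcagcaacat
Actc1: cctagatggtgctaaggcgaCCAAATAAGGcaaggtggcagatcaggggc
Ldb3: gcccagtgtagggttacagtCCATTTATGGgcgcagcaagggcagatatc
Myl3: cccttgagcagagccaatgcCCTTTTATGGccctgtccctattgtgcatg
Myl9: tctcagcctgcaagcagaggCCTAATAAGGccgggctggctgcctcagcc
They lie at chr8:123894819-123894868 (minus strand) for Acta1, chr2:114052893-114052942 (minus strand) for Actc1, chr14:34588687-34588736 (minus strand) for Ldb3, chr9:110763573-110763622 (plus strand) for Myl3 and chr2:156775283-156775332 (plus strand) for Myl9. The box begins 73 bases before the start in Acta1, 47 in Actc1, 109 in Ldb3, 85 in Myl3 and 161 in Myl9. The other two genes are Fhl2 and Myl6. A match is a description of the letters and not a site at which the factor was measured.

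No gene of the group passed the test of the sexes over both ages. The limma fit, with 1 value per age, called 0 of the 35 genes at a Benjamini-Hochberg adjusted p below 0.05, where 0.0896% of the 7812 rows tested, or 7, were called. The count of called rows was 95 without replicate 1 and 104 without replicate 4 of 8 months and 4 without replicate 4 of 2 months, and 0 of the 35 genes were called in each of these fits. At an unadjusted p below 0.05 it held 1 of the 35, against 10.4% of all rows. The values over both ages ran from -0.33 for Tnnt2 to 0.22 for Cnn1, with standard errors of 0.12 to 0.19 and adjusted p-values of 0.459 or more in limma. With 1 value per age the fit could miss large differences. The Y-linked Eif2s3y, at -2.52, had a limma adjusted p of 0.115, and the lung gene Sftpc, at 2.44, had 0.127. The lack of calls in the group therefore does not show that the sexes were equal. The median was -0.10 in the group and -0.019 over all rows tested. At 8 months 22 of the 35 genes had a negative value, with a median of -0.089 against -0.032 over all rows. At 2 months 22 also had a negative value, with a median of -0.077 against -0.016 over all rows. Of all rows, 55.0% were negative at 8 months and 53.6% at 2 months.

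By size alone, a gene was listed at an age when its value reached 1.5-fold and its 4 arrays shared 1 sign. None of the 35 met this at 8 months, where 2.98% of all rows did (1.68% higher and 1.31% lower in the female pool). None met it at 2 months, where 4.17% of rows did (2.41% higher and 1.77% lower). One sign on all 4 arrays without regard to size was found for 0 of the 35 genes at 8 months, against 10.6% of all rows (5.79% higher and 4.85% lower). At 2 months it was found for 14 genes, against 35.8% of rows: for 11 genes lower in the female pool, against 18.1% of rows, and for 3 higher, against 17.7% of rows.

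**Figure D1:**
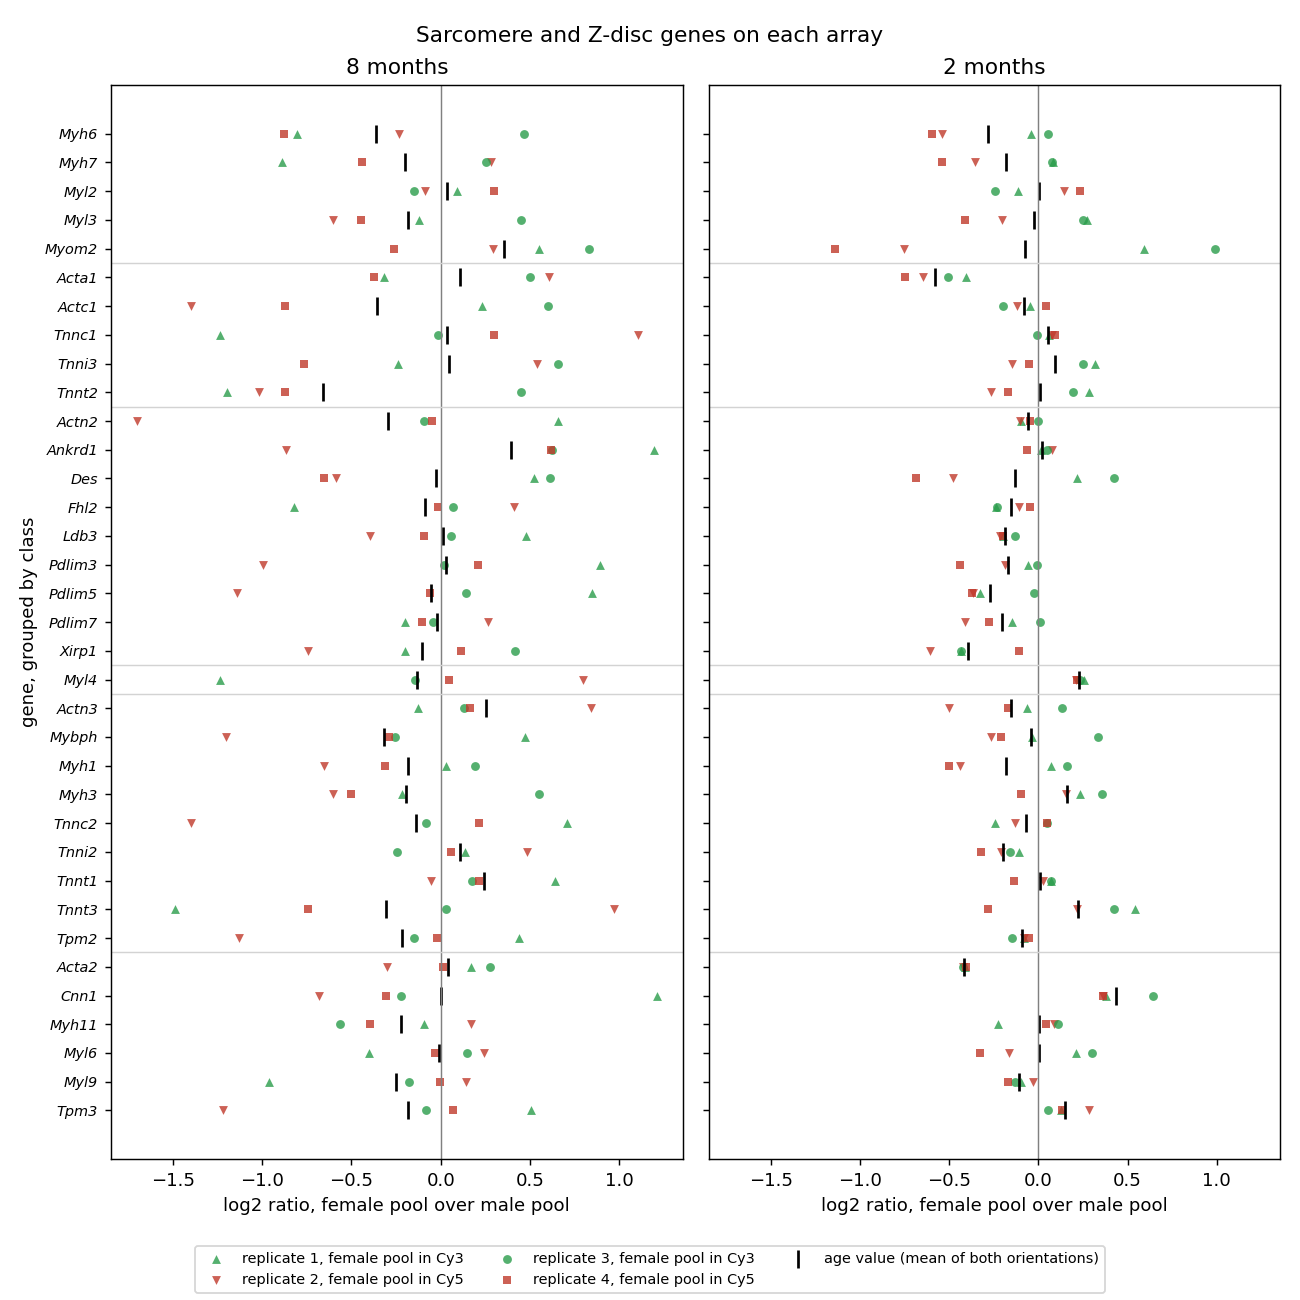
Log2 ratio of the female over the male pool for each of the 35 genes (rows, grouped by class) on each of the 4 arrays of 8 months (left) and 2 months (right). Symbols mark the replicate, colour marks the dye of the female pool and black bars mark the value of the age. The arrays spread more widely at 8 months for 32 of the 35 genes, a count without its share over all rows. Over all probes the interquartile range was 1.18 to 1.56 on replicates 1 and 2 of 8 months, against 0.30 to 0.46 on the other arrays.

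The arrays of 8 months were less even. On replicates 1 and 2 at 8 months the ratios drifted along the feature number, which gives the probes' order. The running median over neighbouring probes had an SD of 0.51 on replicate 1 and 0.82 on replicate 2, while each of the remaining 6 arrays had 0.032 to 0.071. The direction of the ratios was checked with Xist, the RNA of the silenced X chromosome, which was at 3.45 ± 0.85 at 8 months and 2.44 ± 0.89 at 2 months (SD, n = 4 arrays each). The Y-linked Kdm5d was at -2.88 ± 1.04 at 8 months and -2.43 ± 0.78 at 2 months. Eif2s3y, also Y-linked, was at -1.87 ± 0.55 and -3.18 ± 0.81. Each of these genes had 1 sign on all 8 arrays. The ages of Eif2s3y differed by 1.31 without overlap of the arrays. This check gene thus met the rule for an age difference that is used below. Some markers of tissues other than heart muscle were far from 0 at 2 months: all 6 measured thymocyte markers of 10 listed met the size rule there, with a median of 0.15 at 8 months and 3.41 at 2 months. The 5 measured brown fat markers of 8 had medians of -0.24 at 8 months and 0.24 at 2 months, and 2 of them met the size rule at 2 months, with Ucp1 the highest at 0.34 ± 0.52 at 8 months and 2.99 ± 0.21 at 2 months. The 3 measured lung markers of 5 had medians of 0.37 at 8 months and 1.07 at 2 months. All 3 met the size rule at 2 months and 1 met it at 8 months. That gene was Sftpc, at 3.12 ± 1.65 at 8 months and 1.76 ± 0.31 at 2 months. The 5 measured endothelial markers of 7 had medians of -0.50 at 8 months and -0.43 at 2 months. The 6 measured cardiomyocyte markers of 8, most of them genes of the group, had medians of -0.36 at 8 months and 0.007 at 2 months. The part of other cell types in the values of the sarcomere genes was not tested.

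The 8-month values of sarcomere genes followed the drift on these arrays. Across the member probes, the value and the running median at the probe's place correlated with r = 0.69 on replicate 1 (n = 37 probes) and r = 0.91 on replicate 2 (n = 38 probes). On replicates 3 and 4 the same r was 0.085 and 0.077 (n = 38 probes each). These are descriptions across probes, which share their array. Of the group, 28 of the 35 genes had opposite signs on replicates 1 and 2, and across the group these arrays correlated with r = -0.63 (n = 35 genes). Over all 7527 rows with both values r was -0.45, so the opposition was not limited to the group. Tnnc1, the calcium-binding subunit of cardiac troponin, read -1.24, 1.11, -0.016 and 0.30 on replicates 1 to 4 at 8 months, against 0.058, 0.077, -0.0051 and 0.093 at 2 months. The 8-month arrays thus ran from well below to well above 0, while the 2-month arrays lay close together. Actn2, the alpha-actinin that cross-links thin filaments at the cardiac Z-disc, read 0.66, -1.70, -0.092 and -0.047 at 8 months, against -0.096, -0.10, -0.0011 and -0.046 at 2 months. Replicate 2 was far below the others, and the 8-month value was -0.30 ± 1.00 with all 4 arrays and -0.07 from replicates 3 and 4. For this reason some of the 8-month results below also appear without the drifting arrays, and the others rest on all 4 arrays. Over the 35 genes the median from replicates 3 and 4 was -0.018, with 19 negative, against -0.0015 over all rows and 50.4% of rows negative.

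**Figure D2:**
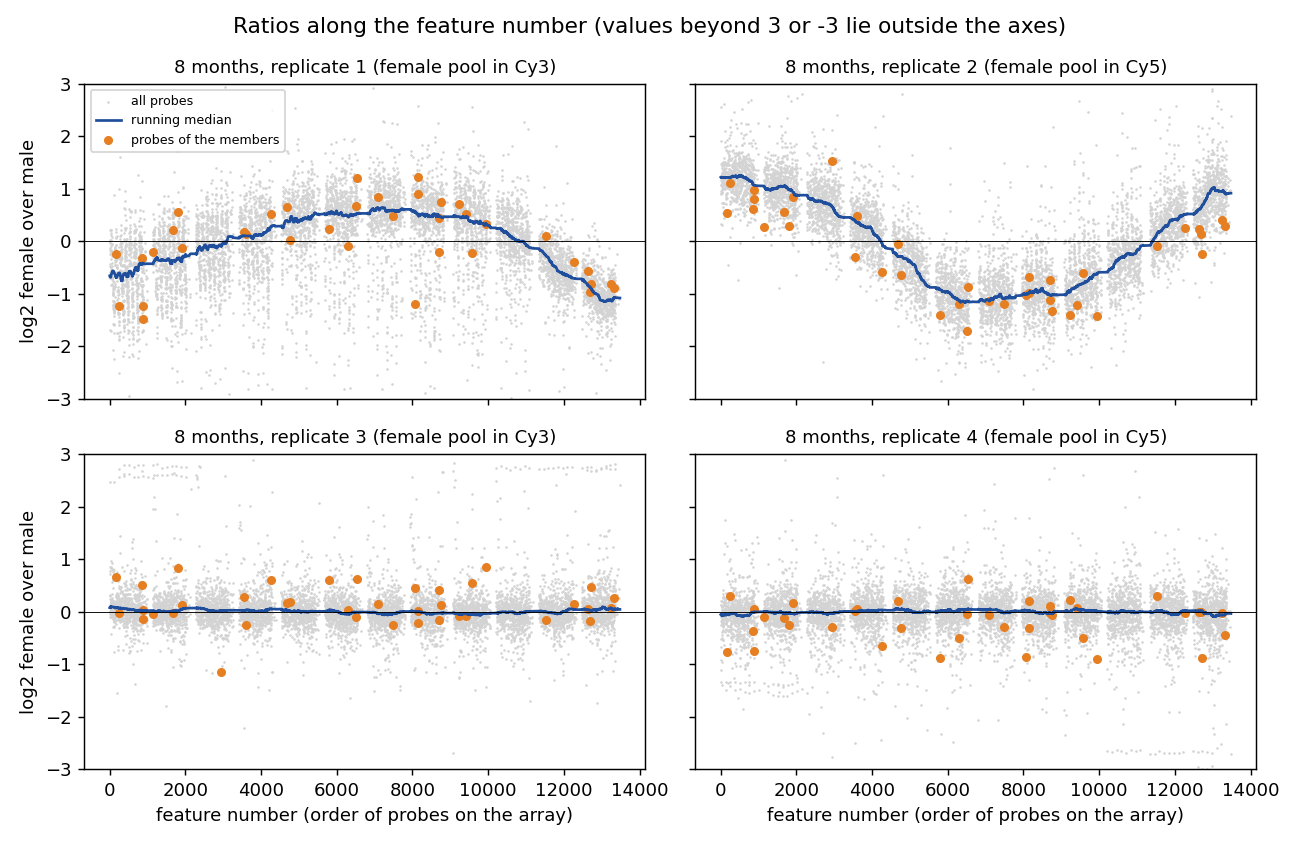
Log2 ratio of the female over the male pool of 8 months (y) against the feature number (x) on each array, with all probes in grey, their running median in blue and the probes of the sarcomere and Z-disc genes in orange. The running median swings on replicates 1 and 2, with an SD of 0.51 and 0.82, and is flat on replicates 3 and 4.

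None of the 5 thick filament genes had 1 sign on all 4 arrays of an age, and their medians were -0.18 at 8 months and -0.077 at 2 months. From replicates 3 and 4 of 8 months their median was 0.00079. Myh6, the alpha heavy chain that is the main cardiac myosin of adult mice, read -0.81, -0.24, 0.47 and -0.88 at 8 months, against -0.039, -0.54, 0.055 and -0.60 at 2 months. It was lower in the female pool on 3 of 4 arrays at each age, and replicate 3, with the female pool in Cy3, was above 0 at both. Without replicate 3 of 8 months it met the size rule there at -0.68. Its value over both ages was -0.32 ± 0.12 (SE, n = 2 pairs of pools), with a limma adjusted p of 0.459. Its unadjusted p in limma was 0.0427, the smallest of the group. Myh7, the slower beta heavy chain of fetal and stressed mouse hearts, read -0.89, 0.28, 0.26 and -0.44 at 8 months, against 0.082, -0.36, 0.078 and -0.54 at 2 months. Its sign was mixed at both ages, and its age values were alike, at -0.20 ± 0.57 and -0.18 ± 0.31 (SD, n = 4 arrays each). Over both ages Myh6 was at -0.32 and Myh7 at -0.19, so that both lay on the same side of 0. The array probes are cDNA clones, and signal shared between near-identical myosin or actin genes was not tested.

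The light chains of the ventricle lay close to 0. Myl2, the regulatory light chain, read 0.091, -0.087, -0.15 and 0.30 at 8 months, against -0.11, 0.14, -0.24 and 0.23 at 2 months. Myl3, the essential light chain, read -0.12, -0.60, 0.45 and -0.45 at 8 months, against 0.28, -0.21, 0.25 and -0.41 at 2 months. Both genes crossed 0 among the arrays of each age, and their values over both ages were 0.022 and -0.10. The 2 probes of Myl3 disagreed in sign at 2 months, with 0.037 and -0.081. Myom2, a myomesin of the M-band, had the largest spread of the group at 2 months, with 0.60, -0.75, 0.99 and -1.14 on replicates 1 to 4. Its mean of -0.077 ± 1.03 therefore stands between large values of opposite sign. At 8 months it read 0.55, 0.29, 0.83 and -0.26.

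A sign that went with the dye was about as frequent in the group as over all rows. For 9 of the 35 genes at 2 months all 4 arrays had a sign that went with the dye, where 25% of all rows did so. They were Des, Myh1, Myh7, Myl2, Myl3, Myl6, Myom2, Tnni3 and Tnnt2. At 8 months 7 genes did, against 16.1% of rows, and on replicates 3 and 4 alone 22 did, against 51.7% of rows. The dye part of a gene is the mean with the female pool in Cy5 minus the mean with it in Cy3, divided by 2. At 2 months it was negative, with Cy3 the stronger dye, for 8 of the 9 genes named, and Myl2 was the exception at 0.18. For 9 of the 9 the sign also changed with the dye, and in the same direction, on replicates 3 and 4 at 8 months, which compare other pools. The same share over all rows is not given here, so it is not read as a trait of the group. Across the 35 genes the dye part at 8 months (replicates 3 and 4) and that at 2 months correlated with r = 0.59, and across 7687 rows with r = 0.74. The sex values of the same arrays correlated with r = -0.26 across the 35 genes and with r = 0.30 across the 7687 rows. Genes are not independent replicates, and these arrays share dyes and probes.

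Des, the intermediate filament desmin that ties Z-discs together, shows the pattern plainly. It read 0.52, -0.58, 0.61 and -0.65 at 8 months, against 0.22, -0.48, 0.43 and -0.68 at 2 months. Every array with the female pool in Cy3 was above 0 and every array with it in Cy5 was below, at both ages. Its sex values were -0.026 ± 0.69 at 8 months and -0.13 ± 0.54 at 2 months (SD, n = 4 arrays each), and its dye parts -0.63 (replicates 3 and 4) and -0.45. For 15 of the 35 genes the dye part at 2 months was larger in size than the sex value, a count without its share over all rows.

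**Figure D3:**
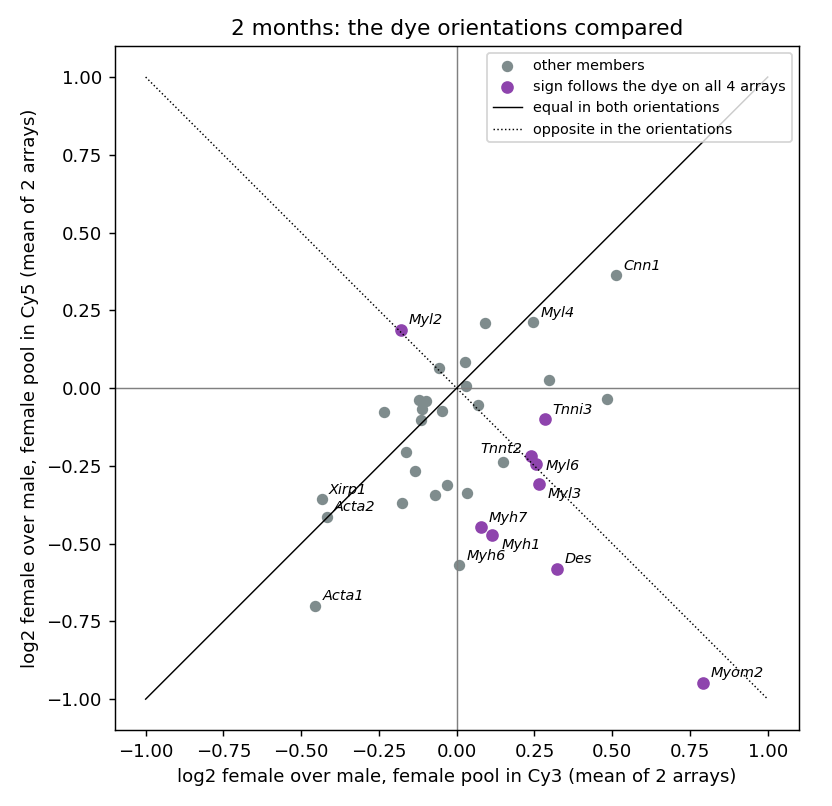
For each of the 35 genes at 2 months, the mean log2 ratio of the female over the male pool with the female pool in Cy5 (y, 2 arrays) against that with it in Cy3 (x, 2 arrays). Genes on the solid line had equal ratios in both orientations, genes on the dotted line had opposite ones, and the 9 purple genes changed sign with the dye on all 4 arrays.

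Among thin filament genes, Acta1, the skeletal alpha-actin that is the minor actin of adult mouse ventricle, had the lowest value of the group at 2 months. It read -0.32, 0.61, 0.50 and -0.37 at 8 months, against -0.40, -0.65, -0.51 and -0.75 at 2 months. All 4 arrays of 2 months were below 0, and the arrays of 8 months lay on both sides. The value was 0.11 ± 0.52 at 8 months and -0.58 ± 0.15 at 2 months (SD, n = 4 arrays each). The 2-month value is a 1.49-fold lower ratio, just short of the 1.5-fold asked by the size rule. The difference of the ages, 8 minus 2 months, was 0.68 with no overlap of the arrays (the lowest of 8 months was -0.37 and the highest of 2 months -0.40), and 0.64 with replicates 3 and 4 alone at 8 months. Acta1 was the 1 gene of the 35 listed for an age difference of at least 1.5-fold without overlap, where 3.29% of all rows were listed (1.57% higher at 8 months). It was not listed without replicate 2 or without replicate 3 of 8 months, nor with the running median removed, while without replicate 1 or 2 of 2 months its 2-month value reached the size rule at -0.60. With 1 pool per sex and age this difference has no test across animals.

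Actc1, the main actin of the heart, did not share that pattern. It read 0.23, -1.40, 0.60 and -0.87 at 8 months, against -0.048, -0.12, -0.20 and 0.045 at 2 months. Its values were -0.36 ± 0.94 and -0.08 ± 0.10 (SD, n = 4 arrays each), and the first was -0.14 from replicates 3 and 4. A list of skeletal muscle markers that includes Acta1 had 10 measured genes, of which 8 were negative at 2 months, with a median of -0.084 at 8 months and -0.17 at 2 months. Of these, Atp2a1, the calcium pump of fast skeletal muscle, was at -0.35 ± 0.62 at 8 months and -0.40 ± 0.078 at 2 months, below 0 on all 4 arrays of 2 months. The part of skeletal muscle RNA in the value of Acta1 was not tested.

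No troponin of the heart had 1 sign on all arrays of an age. Tnnt2, cardiac troponin T, which binds the complex to tropomyosin, read -1.20, -1.02, 0.45 and -0.87 at 8 months, against 0.28, -0.27, 0.19 and -0.17 at 2 months. It had the lowest 8-month value, -0.66 ± 0.75, and was lower in the female pool on 3 of 4 arrays, but was at -0.21 from replicates 3 and 4 and met the size rule at -1.07 without replicate 3. With the running median removed it was at -0.55 at 8 months. At 2 months it was at 0.0092 ± 0.27, with a sign that changed with the dye. Tnni3, the inhibitory subunit cardiac troponin I, read -0.24, 0.54, 0.66 and -0.77 at 8 months, against 0.32, -0.15, 0.25 and -0.051 at 2 months. Its values of 0.047 ± 0.67 and 0.092 ± 0.23 were smaller than their own spread.

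Of the 9 Z-disc genes, 6 were negative at 8 months with a median of -0.026, and 8 were negative at 2 months with a median of -0.17, where 55.0% of all rows were negative at 8 months and 53.6% at 2 months. On replicates 3 and 4 of 8 months 4 were negative, and the median was 0.027. At 2 months 6 of the 9 were below 0 on all 4 arrays: Actn2, Fhl2, Ldb3, Pdlim3, Pdlim5 and Xirp1, where 18.1% of all rows were. Ldb3, the PDZ and LIM protein Cypher that binds alpha-actinin, was at -0.18 ± 0.038, Pdlim5, a related adaptor, at -0.27 ± 0.17, and Fhl2, a LIM protein of Z-disc and nucleus, at -0.16 ± 0.093 (SD, n = 4 arrays each). None of them reached 1.5-fold, and none was called in limma.

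Xirp1, an actin-binding protein of cell junctions and of damaged sarcomeres, had the lowest value of this class at 2 months. It read -0.20, -0.74, 0.42 and 0.12 at 8 months, against -0.43, -0.61, -0.44 and -0.11 at 2 months. All arrays of 2 months were below 0, and replicates 3 and 4 of 8 months were above. The age values were -0.10 ± 0.50, or 0.27 from replicates 3 and 4, and -0.40 ± 0.21. Without the drifting arrays the ages differed by 0.66, against 0.29 with all arrays and 0.44 with the running median removed.

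Ankrd1, the stretch-responsive ankyrin repeat protein CARP, had the highest value of the group at 8 months and is described after its values were seen. It read 1.20, -0.87, 0.62 and 0.62 at 8 months, against 0.013, 0.074, 0.05 and -0.062 at 2 months. Of the 8-month arrays 3 were high and replicate 2 was low, and all arrays of 2 months lay near 0. The value at 8 months was 0.39 ± 0.88, and 0.62 from replicates 3 and 4, or 1.54-fold, and 0.76 without replicate 2. With the running median removed, all 4 arrays of 8 months were positive at 0.67, 0.28, 0.63 and 0.57, and the value was 0.54 ± 0.18 (SD, n = 4 arrays). That value was under 1.5-fold. From replicates 3 and 4 alone, Ankrd1 was the 1 gene of the 35 at 1.5-fold or more with 1 sign, where 3.11% of rows were (2.02% higher in the female pool). Over both ages it was at 0.21 ± 0.15 (SE, limma adjusted p = 0.718). In the same pool Nppb, the natriuretic peptide gene of strained heart muscle, read 1.59, 2.30, 1.45 and 0.84 at 8 months, against -0.061, 0.21, -0.10 and 0.34 at 2 months. Nppa, the other natriuretic peptide gene on the atrial list, lay on the other side at 8 months, at -0.27 ± 0.24 and below 0 on all 4 arrays, and was at 0.30 ± 0.19 and above 0 on all 4 arrays at 2 months (SD, n = 4 arrays each). The 3 measured atrial markers of 5, with Myl4 the third, had medians of -0.14 at 8 months and 0.23 at 2 months.

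**Figure D4:**
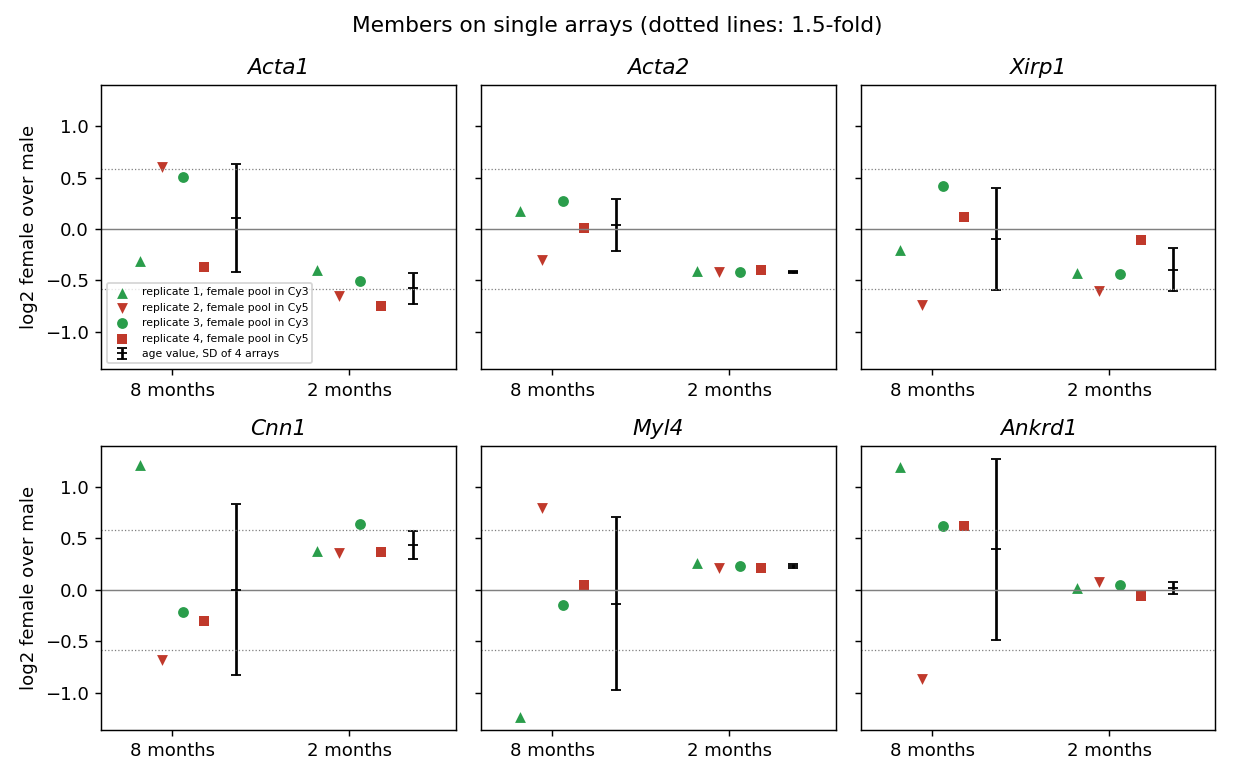
Log2 ratio of the female over the male pool for 6 genes on each array of 8 months (left in each panel) and 2 months (right), with the value of the age and the SD of its 4 arrays in black and 1.5-fold as dotted lines. Acta1, Acta2 and Xirp1 lie below 0 on all arrays of 2 months, Cnn1 and Myl4 above 0 on all of them, and Ankrd1 is high on 3 of 4 arrays of 8 months.

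Smooth muscle genes lay on both sides of 0 at 2 months. Acta2, the smooth muscle alpha-actin of vessel walls, read 0.17, -0.30, 0.27 and 0.014 at 8 months, against -0.41, -0.42, -0.42 and -0.40 at 2 months. The 4 arrays of 2 months nearly coincided, in both dye orientations. Their SD of 0.0094 was the smallest of the group, and 0.0777% of the 7723 rows with 4 values had one as small. The value was 0.039 ± 0.25 at 8 months and -0.42 at 2 months. The ages did not overlap, but the difference of 0.45 was under 1.5-fold. Such a lack of overlap was found for 2 of the 35 genes, Acta1 and Acta2, both higher at 8 months, against 5.93% of all rows (3.03% higher and 2.89% lower at 8 months).

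Cnn1, the actin-binding protein calponin of smooth muscle, was the highest gene of the group at 2 months. It read 1.21, -0.68, -0.22 and -0.31 at 8 months, against 0.38, 0.36, 0.64 and 0.36 at 2 months. All arrays of 2 months were above 0, and replicates 3 and 4 of 8 months were below, so that the ages differed by -0.70 without the drifting arrays and by -0.44 with them. With the running median removed the ages differed by -0.32. Myl9, the regulatory light chain of smooth muscle myosin, read -0.96, 0.14, -0.18 and -0.0017 at 8 months, against -0.098, -0.032, -0.13 and -0.17 at 2 months. It was below 0 on all arrays of 2 months, by a small amount. Myh11, the smooth muscle heavy chain, had 2 probes that disagreed in sign at 2 months, with -0.24 and 0.25, while both were below 0 at 8 months with -0.27 and -0.44. The first probe had no value on replicate 1 of 8 months. The gene is therefore uncertain. Tpm3, a tropomyosin of slow muscle and of non-muscle cells, was above 0 on all arrays of 2 months at 0.15 ± 0.097, against -0.18 ± 0.74 at 8 months (SD, n = 4 arrays each). Myl6, the essential light chain of smooth and non-muscle myosin, was at -0.0094 and 0.0052. The wider list of smooth muscle markers had 7 measured genes of 9, with medians of -0.085 at 8 months and -0.11 at 2 months, and 3 of them lay below 0 and 2 above 0 on all arrays of 2 months.

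Myl4, the light chain of the atria and of the fetal ventricle, was the 1 measured gene of its class. It read -1.24, 0.80, -0.15 and 0.044 at 8 months, against 0.26, 0.21, 0.24 and 0.21 at 2 months. The arrays of 2 months were all above 0 and close together, and those of 8 months lay on both sides. The value was -0.14 ± 0.84 at 8 months and 0.23 ± 0.021 at 2 months (SD, n = 4 arrays each), the second a 1.17-fold higher ratio. How much atrium each pool held was not tested.

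Skeletal muscle isoforms were represented by 9 genes, of which 6 were negative at each age, with medians of -0.19 at 8 months and -0.069 at 2 months. On replicates 3 and 4 of 8 months 5 were negative, with a median of -0.059. At 2 months Tnni2, the fast troponin I, was at -0.20 ± 0.091 and Tpm2, beta-tropomyosin, at -0.091 ± 0.039, and both were below 0 on all 4 arrays. Tnnt3, the fast troponin T, was at -0.31 ± 1.05 at 8 months and 0.22 ± 0.36 at 2 months. Tnnt1, the slow troponin T, was at 0.24 ± 0.29 at 8 months and 0.0067 ± 0.097 at 2 months. Myh1 and Myh3, the adult fast and the embryonic skeletal heavy chains, were at -0.19 and -0.19 at 8 months and -0.18 and 0.16 at 2 months. None of the 9 exceeded 1.5-fold at either age.

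The sign of the 14 genes with 1 sign at 2 months was compared with the flat arrays of the older pools. On replicates 3 and 4 of 8 months 3 of them, Actn2, Myl9 and Tpm2, had the same sign on both arrays. The opposite sign on both was found for 4, Acta2, Cnn1, Pdlim3 and Xirp1. The remaining genes had mixed signs on these arrays. The same shares over all rows are not given here, so these counts are not read as a trait of the group. With the running median removed, 4 arrays of 8 months shared a sign for 4 genes of the group: Ankrd1 and Tnnt1 above 0, against 10.0% of all rows, and Mybph and Myl9 below 0, against 9.37%.

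Partners of the sarcomere outside the symbol rule, such as its regulators, kinases and chaperones, had 22 measured genes of 56 listed. None passed the limma test, 19 were negative at 8 months with a median of -0.20, and 16 were negative at 2 months with a median of -0.11, against 55.0% of all rows negative at 8 months and 53.6% at 2 months. Without the drifting arrays of 8 months the partners' median moved to -0.099. There 17 of the 22 lay below 0, against 50.4% of all rows. At 2 months 10 partners were below 0 on all arrays, against 18.1% of all rows, and 2 above 0, against 17.7%. Mylk3, the cardiac kinase of Myl2, was the 1 partner that met the size rule at 2 months, against 4.17% of all rows. It was at -0.046 ± 0.78 at 8 months and -0.73 ± 0.65 at 2 months. Its 2-month mean was -1.27 with the female pool in Cy5 and -0.19 with it in Cy3, so its size came mostly from 1 orientation. Ppp1r12b, a targeting subunit of the myosin light chain phosphatase, was at -0.38 ± 0.99 at 8 months and -0.32 ± 0.064 at 2 months.

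Srf itself read -0.75, -0.78, 0.24 and -0.12 at 8 months, against -0.28, -0.89, -0.20 and -0.88 at 2 months. All arrays of 2 months were below 0, those with the female pool in Cy5 by more, and replicate 3 of 8 months was above. The value was -0.46 ± 0.13 over both ages (SE, n = 2 pairs of pools, limma adjusted p = 0.361). It was -0.35 ± 0.50 at 8 months, or 0.059 from replicates 3 and 4, and -0.56 ± 0.37 at 2 months. The 7 genes with a CArG box in the window had medians of -0.089 at 8 months and -0.11 at 2 months, and 6 of them were negative at 2 months. The 22 genes without one had medians of -0.094 and -0.052, and 12 were negative at 2 months. From replicates 3 and 4 of 8 months the medians were 0.00079 with a box and -0.036 without one. The part of Srf in these values was not tested. Among the genes whose boxes are printed above, the 2-month values ran from -0.58 for Acta1 to -0.022 for Myl3, with Actc1 at -0.08.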

How the data were processed

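RNA of pooled hearts was hybridised in 2 colours, with 4 technical arrays per age. Values were read as deposited: log10 ratios of Cy5 over Cy3, from Agilent Feature Extraction 7.1.1, per the labels. Background correction and normalization are not given in the sources used here. An exact 0 was taken as missing, and the other values were turned to log2 of female over male by the dyes in the labels. Probes of 1 gene were averaged. A row needed 3 of 4 arrays per age and both dye orientations. After the averaging 7812 rows met this, from 9607 probe rows before it. Of the probe rows, 6671 carried 1 symbol, 400 several and 2536 none, and 6600 symbols were updated through the RefSeq table of GRCm38.p6. Arrays of 1 age repeat 1 pair of pools, so limma 3.58.1 (R 4.3.3) was fitted on the 2 age means across all rows, with Benjamini-Hochberg adjustment; p-values measure the spread between 2 ages. Values array by array are given for members called or listed by the size rules. They are also given for up to 4 members per direction with the largest value over both ages among those with 1 sign at an age. With 11 measured of 14 core genes these make 16 genes in all. Myom2 and Ankrd1 are given array by array outside this rule. Other lists give at most 3 genes each, by size. The members, lists and tests were chosen with earlier results of these data known. Alternatives covered centring, scaling, the trend, exact 0 values, the filter, probe averaging, the fold and each array left out.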

Additional observations from a re-analysis of the deposited data

Results flagged for a closer look

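Cnn1 at 2 months had 1 array far from the others: replicate 3 was at 0.643, and the other arrays were at 0.36 to 0.38. Pdlim5 at 2 months had replicate 3 at -0.0259, and the other arrays at -0.33 to -0.37. These were 2 of the 70 sets of 4 arrays tested with Dixon's criterion, and chance marks about 1 in 20 sets.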

How the results depend on the processing

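No gene of the group was called over both ages under any alternative run. The count of all called rows, 7 as reported, was 1 with replicates 3 and 4 alone at 8 months, 4 with the running median removed, 3 with arrays scaled to 1 interquartile range, and 0 in limma with exact 0 kept as a value, where 887 rows had an unadjusted p below 0.05. It ranged from 4 to 104 when 1 array was left out. With replicates 3 and 4 alone, 1 gene met the size rule at 8 months (Ankrd1, 0.62) and 4 met that of the age difference (Acta1 0.64, Ankrd1 0.60, Cnn1 -0.70, Xirp1 0.66). With the running median removed, 1 met it at 2 months (Acta1, -0.60) and 0 for the age difference. With each probe apart, 2 met it for the age difference (Acta1 and 1 probe of Myh11, -0.69), and at 2-fold 0 did. Leaving out 1 array gave 0 to 2 genes at 8 months, 0 to 1 at 2 months and 1 to 2 for the age difference. The listed gene was Ankrd1 (0.75) without replicate 2 and Tnnt2 (-1.08) without replicate 3 of 8 months, and Acta1 and Cnn1 (0.89 and -0.79) without replicate 1. The cause of these moves was not tested. The median of the group stayed below 0 in every alternative, between -0.10 and -0.0037 at 8 months with 1 array left out. No paired analysis was possible because the arrays of an age are technical repeats of 1 pair of pools, each array already holds both sexes, and the difference of the ages comes from no test. The 2 age means leave 1 residual degree of freedom, and ratios without intensities give no view of signal over background.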
